A study of Mus musculus with 9 samples.

Results

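Histone genes were examined in ribosome-depleted total RNA of pre-cDCs, the committed precursors of conventional dendritic cells. Members were all genes whose symbol in the GENCODE M21 annotation starts with Hist1h to Hist4h, H2af or H3f3 and that had at least 1 count in at least 1 of the 9 samples. The annotation holds 87 such symbols, 85 of them were in the count table, 8 had no count in any sample, and 77 genes of the 51912 listed were members. They comprised 62 clustered replication-dependent genes, 8 replacement variants, and 7 pseudogenes or antisense genes. A filter on low counts left 60 clustered genes, all 8 replacement variants and 5 of the other 7 in the spleen against BM test.

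Pre-cDCs were sorted from mixed BM chimeras. The hosts were BL/6 mice that carry both CD45 alleles (CD45.1/2) and were irradiated at a lethal dose. The WT donor cells carried CD45.1, the donor cells without DNGR-1 (Clec9aCre/Cre) carried CD45.2, and both shared the same host. WT and KO samples of one number are taken here as cells of the same pool of mice. The groups were WT BM (n = 3), DNGR-1 KO BM (n = 3), WT spleen (n = 1) and DNGR-1 KO spleen (n = 2), and each sample pooled cells of a pair of mice. Clec9a encodes DNGR-1, so the KO donors lack a receptor for dead cells, and genotype cannot be told apart from the CD45 congenic background in these samples. Mice of the study were young adults when experiments began.

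Histones package DNA into nucleosomes. The clustered genes, most of which have no introns, make the bulk of the core histones H2A, H2B, H3 and H4 and the linker histone H1 during S phase, when newly copied DNA has to be wrapped. Their transcripts usually end in a short stem-loop that is bound by SLBP and cut by a U7 snRNP complex, and usually carry no poly(A) tail, so that they are largely lost from libraries made by poly(A) selection. Replacement variants such as H3.3 (H3f3a and H3f3b) and H2A.Z (H2afz and H2afv) come from genes with introns and polyadenylated transcripts, and are made through the cell cycle and in resting cells. H2AX (H2afx), the variant that is phosphorylated beside DNA breaks, is known to be made in both transcript forms.

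The classes compared here were set by gene symbol and annotated gene type, not by the stem-loop. The stem-loop is shown for the members on which the results turn. A perfect stem of 6 base pairs around a loop of 4 bases was found within 120 bases of the stop codon in 43 of the 62 clustered genes and, among the replacement variants, in H2afx. Only annotated bases after the stop codon were searched, so genes annotated without them could not show a stem-loop. Capitals mark the stem and loop, and lower case the flanking bases. Sequences were read from GENCODE M21 transcripts (GRCm38), and the coordinates are those of the stem and loop.

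Hist1h2ap, chr13:21833029-21833044, minus strand: aaaaaGGCUCUUUUCAGAGCCauc
Hist1h2ao, chr13:21810898-21810913, plus strand: aaaaaGGCUCUUUUCAGAGCCaucca
Hist1h2ae, chr13:23570668-23570683, minus strand: acaaaGGCUCUUUUCAGAGCCauuca
Hist2h2aa1, chr3:96246032-96246047, plus strand: aaaaaGGCUCUUUUCAGAGCCaccca
Hist3h2a, chr11:58955172-58955187, plus strand: ccaaaGGCUCUUUUCAGAGCCaccca
Hist1h1c, chr13:23739512-23739527, plus strand: caaaaGGCUCUUUUCAGAGCCaccac
Hist1h4d, chr13:23581950-23581965, plus strand: ccaaaGGCCCUUUUCAGGGCCacuac
Hist1h4i, chr13:22040966-22040981, minus strand: uuaaaGGCCCUUUUUAGGGCCaccac
H2afx, chr9:44335240-44335255, plus strand: acaaaGGCCCUUUUAAGGGCCaccac

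The 16 bases in capitals were identical in 24 genes, among them Hist1h2ap, Hist2h2aa1, Hist3h2a and Hist1h1c, which behaved differently in the comparisons that follow. A second form, that of Hist1h4d, occurred in 7 genes, all of them H4 genes. The form in H2afx was found in no other member, and 9 forms were seen in all.

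The promoters of these genes (250 bases before to 50 after the start, from RefSeq on GRCm38.p6) were matched for 65 members. Motifs were searched on both strands as exact letters. TATAAA stood in 33 of 57 clustered promoters (57.9%) against 13.6% of all 32851 promoters of that length, and CCAAT in 48 (84.2%) against 37.4%. The octamer ATTTGCAT stood in 10 (17.5%) against 1.74%, an E2F-type motif (TTTGGCGC, TTTCCCGC or TTTCGCGC) in 10 (17.5%) against 1.84%, and TTTGAA in 26 (45.6%) against 17.9%. Of the 7 replacement promoters that matched, 6 held CCAAT and 1, that of H3f3b, held TATAAA. These 3 promoters are printed, for the most abundant clustered gene, the clustered gene that rose in spleen and one that did not pass the test there, with the letters of the TATA, CCAAT and octamer motifs in capitals on either strand.

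Hist1h2ap promoter, chr13:21833426-21833725, minus strand: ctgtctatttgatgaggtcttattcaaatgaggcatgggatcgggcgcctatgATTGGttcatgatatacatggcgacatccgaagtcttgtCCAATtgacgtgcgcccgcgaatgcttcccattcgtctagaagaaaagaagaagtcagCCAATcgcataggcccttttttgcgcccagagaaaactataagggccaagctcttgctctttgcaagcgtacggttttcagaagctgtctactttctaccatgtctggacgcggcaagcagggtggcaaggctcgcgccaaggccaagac
Hist2h2aa1 promoter, chr3:96245247-96245546, plus strand: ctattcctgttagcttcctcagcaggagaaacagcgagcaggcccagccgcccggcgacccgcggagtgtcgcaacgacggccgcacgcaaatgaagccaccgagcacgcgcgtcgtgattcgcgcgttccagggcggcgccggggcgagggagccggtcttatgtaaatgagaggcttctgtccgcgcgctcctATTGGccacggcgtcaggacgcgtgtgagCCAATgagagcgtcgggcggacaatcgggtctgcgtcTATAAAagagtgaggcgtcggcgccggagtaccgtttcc
Hist3h2a promoter, chr11:58954435-58954734, plus strand: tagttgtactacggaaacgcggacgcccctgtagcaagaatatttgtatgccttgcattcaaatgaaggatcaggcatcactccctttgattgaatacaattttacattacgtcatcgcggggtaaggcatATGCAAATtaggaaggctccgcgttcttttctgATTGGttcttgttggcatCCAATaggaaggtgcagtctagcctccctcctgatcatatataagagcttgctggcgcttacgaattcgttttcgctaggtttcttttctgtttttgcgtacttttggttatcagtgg

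The Hist1h2ap window held CCAAT and no TATAAA, that of Hist2h2aa1 held both, and that of Hist3h2a held CCAAT and the octamer. Among the 19 clustered genes with a promoter that fell in spleen, 10 (52.6%) held TATAAA, and among the 36 that were tested and did not fall, 21 (58.3%) did. The octamer stood in 4 of the 19 and 6 of the 36.

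Estimated counts per sample totalled 17103806 to 23722298, so that 3 counts corresponded to 0.126 to 0.175 CPM (counts per 1000000 counts). Clec9a had 905 to 1766 counts in the 3 WT BM samples and 2459 in WT spleen, against 0 or 1 in every KO sample. The WT spleen library stood apart: of 8389 genes with at least 100 counts in both KO spleen samples, 509 (6.07%) had 3 counts or fewer in it, whereas the corresponding shares were 1.82% and 1.92% for the KO spleen libraries and at most 0.0114% for any BM library. All 10 dendritic cell lineage markers were above 3 counts in every sample. All CPM values that follow were TMM-scaled and not per length unless stated per kb of exon, and differences are log2 values from edgeR.

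Clustered histone genes were lower in spleen than in BM pre-cDCs. Their summed level in BM was 2400, 1360 and 1650 CPM in the WT samples and 1360, 1270 and 1920 CPM in the KO samples. In spleen it was 355 CPM in the WT sample and 339 and 203 CPM in the KO samples, so that every spleen sample lay below every BM sample. The means were 1660 ± 436 (SD, n = 6) and 299 ± 83.6 (SD, n = 3), a 5.55-fold difference. In a bulk sample, fewer cells that make these transcripts and less transcript per cell cannot be told apart.

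The replacement variants were more abundant and differed less between tissues as a sum. They reached 9560, 6960 and 7420 CPM in WT BM and 7170, 8210 and 10500 CPM in KO BM, against 6380 CPM in WT spleen and 5470 and 5050 CPM in KO spleen. The groups did not overlap, but the means differed only 1.48-fold (8310 ± 1450, n = 6, and 5630 ± 682, n = 3, SD). The ratio of replacement to clustered CPM was 5.14 ± 0.861 (SD, n = 6) in BM and 19.6 ± 4.6 (SD, n = 3) in spleen. Without Hist1h2ap, the clustered gene of highest level, it was 13.4 in BM and 23.3 in spleen. To compare classes of unequal length, levels were also taken per kb of exon. The ratio was then 1.2 ± 0.22 in BM and 6.11 ± 2.24 in spleen. With all members, both classes thus stood at about the same level per length in BM. In spleen the replacement class stood higher in every sample (4.52 to 8.67). The near equality in BM rested on Hist1h2ap, which held 67.9 to 74.8% of the clustered level per kb there. Without it, clustered genes stood at 833 ± 207 CPM per kb in BM, against 3450 ± 586 for replacement variants (SD, n = 6).

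**Figure D1:**
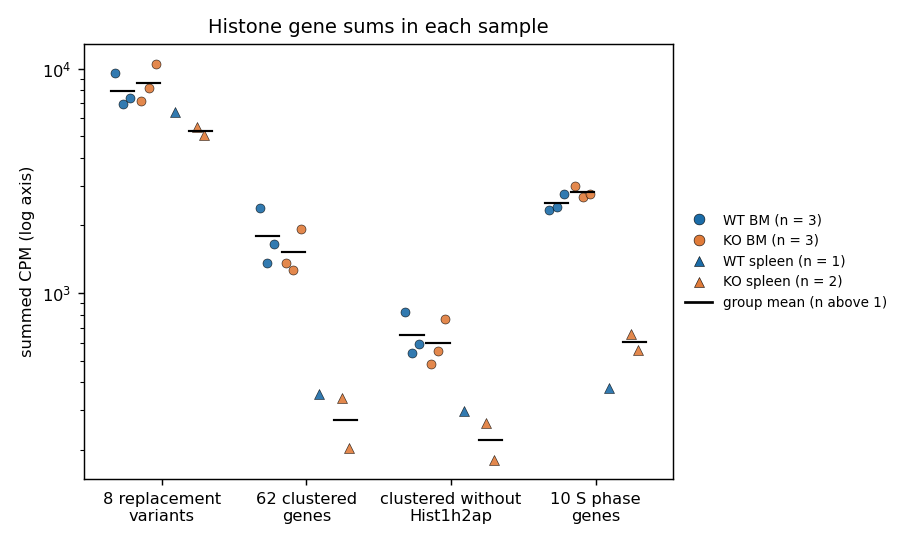
Summed CPM (log axis) of the replacement variants, the clustered genes, the clustered genes without Hist1h2ap and a list of S phase genes in each of the 9 samples, with bars at the mean of each group of more than 1 sample. The clustered sum lay between 1270 and 2400 CPM in BM and between 203 and 355 CPM in spleen, while the replacement sum lay between 5050 and 10500 CPM in all samples.

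In the test across all genes, 20 of 60 clustered genes (33.3%) fell in spleen, against 9.7% of all 15813 genes tested. One clustered gene, Hist2h2aa1, rose, against 5.98% of all genes (edgeR quasi-likelihood test, Benjamini-Hochberg adjusted p under 0.05). The median log2 difference of the clustered genes was -3.47, and -2.32 when the 15 tested genes with at most 3 counts in every spleen sample were set at the bound that 3 counts per library allows, against -0.21 over all genes. Fitted differences were negative for 55 of the 60, while the median over all genes was itself negative. Every spleen value lay below every BM value for 38 of the 60, against 15.8% of all genes. With the pool number as a replicate block, 6 fell and none rose (10% against 4.05% of all genes, lower), namely Hist1h1b, Hist1h2ae, Hist1h2ap, Hist1h3i, Hist1h4d and Hist1h4i. With the KO samples alone, 7 of 58 fell (12.1% against 6.23% of all genes) and none rose. The number that fell was 36 of 60 with DESeq2 (against 15.5% of all genes) and 36 of 60 with limma-voom (against 14.3%). It dropped to 11 to 13 when any single BM library was left out, where 6.34 to 8.62% of all genes fell. These numbers were 13 without WT BM 1, 12 without WT BM 2, 12 without WT BM 3, 13 without KO BM 1, 11 without KO BM 2 and 12 without KO BM 3.

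**Figure D2:**
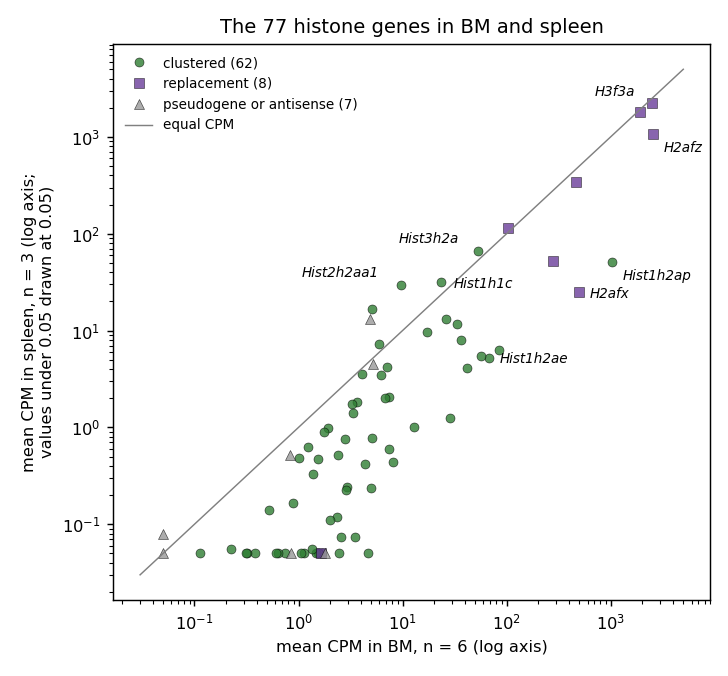
Mean CPM of the 77 members in BM (n = 6, horizontal) and spleen (n = 3, vertical), both on log axes, with the line of equal CPM. Most clustered genes (circles) lie below the line, H3f3a lies close to it, and Hist2h2aa1 (9.58 CPM in BM and 29.9 CPM in spleen) lies above it.

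Hist1h2ap, an H2A gene of the Hist1 cluster on chromosome 13, supplied most of the clustered signal in BM. Its level was 1580, 824 and 1060 CPM in WT BM and 875, 714 and 1150 CPM in KO BM, and 56.3 CPM in WT spleen and 76.2 and 22.1 CPM in KO spleen. It fell 19.3-fold (log2 difference -4.27, SE 0.46, edgeR adjusted p = 0.000459). It held 56.3 to 65.6% of all clustered CPM in BM and 10.9 to 22.4% in spleen.

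That level carries a limit, because 93.1% of the 50-base words of Hist1h2ap occur in other genes, and estimated counts of such copies depend on how the reads are divided among them. More generally, 34 of 62 clustered genes shared over 50% of their 50-base words with another gene, as did 13 of the 20 that fell, whereas the median share was 8.33% for the replacement variants. Without Hist1h2ap, the clustered sum was 626 ± 137 CPM in BM (SD, n = 6) and 248 ± 60.4 CPM in spleen (SD, n = 3). The difference was then 2.52-fold, with the 2 tissues still apart (484 to 826 and 181 to 299 CPM).

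Other H2A genes fell as well. Hist1h2ae, of which 43.2% of the 50-base words are shared, stood at 88.8, 58.6 and 63.5 CPM in WT BM, 56.7, 48.8 and 91.7 CPM in KO BM, 5.16 CPM in WT spleen and 7.94 and 2.66 CPM in KO spleen. Its difference was -3.68 (SE 0.45, edgeR adjusted p = 0.000891). Hist1h2ao, a near copy of Hist1h2ap, stood at 30.3 to 99.4 CPM in BM and 0.422 to 10.7 CPM in spleen (difference -3.19, SE 0.85, edgeR adjusted p = 0.0321), but the adjusted p was 0.0547 to 0.0937 without any 1 of the BM libraries or without the WT spleen library, 0.0643 with the replicate block and 0.2 with KO samples alone. Hist1h2ab was at 23.3 to 38.2 CPM in BM, at 0 in WT spleen and KO spleen 2, and at 3.78 CPM in KO spleen 1, and did not pass the test (edgeR adjusted p = 0.0626).

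The H4 genes Hist1h4d and Hist1h4i gave some of the lowest p-values, and their sequences are less shared (10.2% and 28.9% of 50-base words). Of the other H4 genes that fell, Hist1h4n and Hist1h4b shared 85.6% and 75.9% of these words, and Hist1h4j 24.6%. Hist1h4d stood at 80.4, 21.5 and 38.9 CPM in WT BM and 36.1, 28.5 and 44.8 CPM in KO BM, against 2.85 CPM in WT spleen and 5.05 and 4.52 CPM in KO spleen. It fell by 3.31 on the log2 scale (SE 0.54, edgeR adjusted p = 0.00357), and 10.2% of its 50-base words are shared. Hist1h4i stood at 36.1 ± 6.69 CPM in BM (SD, n = 6) and 7.97 ± 1.35 CPM in spleen (SD, n = 3), a difference of -2.15 (SE 0.33, edgeR adjusted p = 0.00275). Of 11 H4 genes tested, 5 fell (45.5% against 9.7% of all genes), and 2 with the replicate block.

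Of 5 linker H1 genes, 1 fell, where 9.7% of all genes did. Hist1h1b, which shares no 50-base word with another gene, was at 65 to 118 CPM in BM and at 5.99, 11.7 and 1.31 CPM in spleen, and fell by 3.76 on the log2 scale (SE 0.65, edgeR adjusted p = 0.00491). With KO samples alone its difference was -3.74 (edgeR adjusted p = 0.0616). Hist1h1e stood at 23.7 to 46 CPM in BM and 4.52 to 16.1 CPM in spleen and did not pass (difference -1.48, edgeR adjusted p = 0.0589). Hist1h1c stood at 17.1 to 29.1 CPM in BM and 37.9, 22.2 and 34.3 CPM in spleen, where the ranges overlapped and the difference was 0.42 (SE 0.33, edgeR adjusted p = 0.401).

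The clustered H3 genes were low throughout. Hist1h3i, an H3 gene with 61 to 128 counts in each BM sample, had no count in any spleen sample, which makes it at least 29.5-fold lower there at a floor of 3 counts per library (edgeR adjusted p = 0.00232). Hist1h3g likewise had no count in spleen and was at least 15.6-fold lower (edgeR adjusted p = 0.00595, and 0.0505 with the replicate block). In all, 10 of the 62 clustered genes had no count in any spleen sample and 17 had 3 counts or fewer in each. Absence from spleen was not particular to them, as 6056 of all 21524 genes with counts had none in any spleen sample. All clustered H3 genes summed to 29.6 ± 7.66 CPM in BM (SD, n = 6) and 3.34 ± 2.61 CPM in spleen (SD, n = 3), and 4 of 12 fell (33.3% against 9.7% of all genes), but 1 with the replicate block.

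H2B genes were also few in counts, and 5 of 15 fell (33.3% against 9.7% of all genes), but none with the replicate block in edgeR. Hist1h2bj, the divergent partner of Hist1h2ag, was at 8.12 ± 2.41 CPM in BM (SD, n = 6) and 0.435 ± 0.615 CPM in spleen (SD, n = 3), a difference of -4.62 (SE 1.26, edgeR adjusted p = 0.0354). That call was lost without any 1 of the BM libraries (edgeR adjusted p = 0.0599 to 0.0819), without KO spleen 1, with the replicate block (0.136) and with KO samples alone (0.0984). Hist1h2bc, at 18.3 to 45.4 CPM in BM and 5.61 to 17.9 CPM in spleen, did not pass (difference -0.94, edgeR adjusted p = 0.202). Hist2h2be, at 6.63 to 30 CPM in BM, had no count in KO spleen 1 but 275 and 306 counts in the other spleen samples, and did not pass either (edgeR adjusted p = 0.68).

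**Figure D3:**
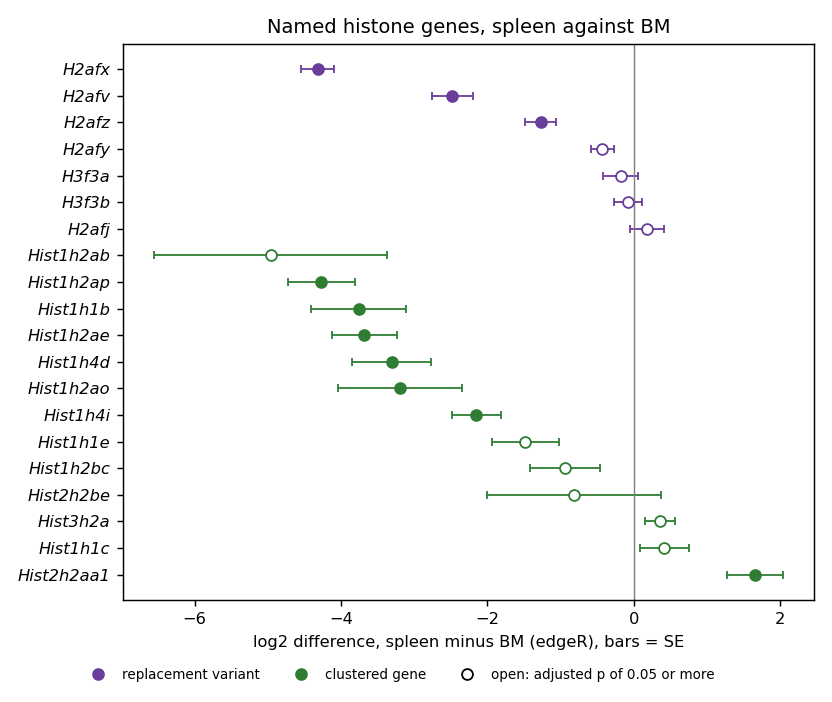
Log2 difference between spleen and BM (edgeR, bars give the SE) for the named replacement variants and clustered genes with at least 1 count in spleen, filled where the adjusted p was under 0.05. H2afx (-4.32) lies with the clustered genes that fell, whereas H3f3a (-0.18) and H3f3b (-0.08) lie at 0, and Hist2h2aa1 (1.66) lies on the other side.

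Hist2h2aa1, an H2A gene of the Hist2 cluster on chromosome 3, went against the other clustered genes that passed. It stood at 11.9, 10.2 and 7.78 CPM in WT BM and 6.29, 9.42 and 11.9 CPM in KO BM, against 41.7 CPM in WT spleen and 27.9 and 20 CPM in KO spleen. The groups did not overlap, and it rose 3.15-fold (log2 difference 1.66, SE 0.38, edgeR adjusted p = 0.0171). Every 50-base word of this gene is shared, and Hist2h2aa2, the adjacent copy, was at 1.56 to 8.77 CPM in BM and 10.9 to 23.7 CPM in spleen (edgeR adjusted p = 0.0902). Summed over both copies, the level was 14.7 ± 4.05 CPM in BM (SD, n = 6) and 46.4 ± 17.5 CPM in spleen (SD, n = 3), 3.16-fold higher in spleen. Without the WT spleen library, the call of Hist2h2aa1 was lost (difference 1.4, edgeR adjusted p = 0.0748). It was lost as well with the replicate block (difference 1.69, edgeR adjusted p = 0.107) and with KO samples alone (difference 1.39, edgeR adjusted p = 0.146). In the annotation, 3 genes overlap its exons, 2 of them on the other strand, and the strand setting of the counting was not given in the sources used here.

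The counts were also taken by position. The 49 clustered genes on chromosome 13 lie in a proximal block of 22 genes (chr13:21715763-22043676) and a distal block of 27 genes (chr13:23531050-23764406). In the proximal block 11 of 21 tested genes fell (52.4%), with a median of -3.85. In the distal block 7 of 26 fell (26.9%), with a median of -2.93, against 9.7% and -0.21 for all genes. With the replicate block these counts were 4 (19%) and 2 (7.69%), against 4.05% of all genes. On chromosome 3 (10 genes), 2 fell (20%) and 1 rose (10%, against 5.98% of all genes), with a median of -2.23. None fell or rose there with the replicate block in edgeR. The summed level on chromosome 3 was 33.5 to 58.5 CPM in BM and 45 to 86.2 CPM in spleen, where the ranges overlapped. These medians are of fitted differences, and genes with at most 3 counts in every spleen sample were not set at a bound. Hist3h2a on chromosome 11 was at 47.5 to 56.6 CPM in BM and 74.7, 76.8 and 48.9 CPM in spleen, without passing the test (difference 0.36, SE 0.21, edgeR adjusted p = 0.269).

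The clustered genes were then grouped by the annotated end of the transcript. In 22 genes the longest transcript ends within 100 bases of the stem-loop, as for Hist1h2ap, which ends 3 bases past it. Of these, 10 fell (45.5%, against 9.7% of all genes) and 1 rose (4.55%, against 5.98%), with a median of -4.13. In 21 genes the longest transcript runs more than 100 bases past, as for Hist3h2a with 1643 bases, Hist1h1c with 840 and Hist1h4d with 770. Of the 20 tested among them, 6 fell (30%), with a median of -1.58. Where no stem-loop was found, 4 of 18 tested genes fell (22.2%), with a median of -3.81. That set is in part a limit of the annotation, as only annotated bases after the stop codon were searched. Several of its genes, such as Hist1h3i (411 bases) and Hist2h2bb (381 bases), have annotated transcripts of coding sequence only, where none could be found. With the replicate block, 1 (4.55%), 3 (15%) and 2 (11.1%) genes of the 3 sets fell, against 4.05% of all genes, and none rose. The medians are again of fitted differences without bounds. Any part of the transcript end in these differences was not tested. The summed level of the first set was 852 to 1810 CPM in BM and 61.6 to 142 CPM in spleen, and that of the second was 243 to 392 and 118 to 175 CPM.

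Of the 8 replacement variants, 3 fell and none rose, where 9.7% of all genes fell and 5.98% rose. With KO samples alone, 2 of the 8 fell. H2afx stood at 497, 489 and 525 CPM in WT BM and 425, 536 and 480 CPM in KO BM, against 20.5 CPM in WT spleen and 24.3 and 30 CPM in KO spleen. It fell 20-fold (log2 difference -4.32, SE 0.22, edgeR adjusted p = 1.23e-05). Its difference was thus as large as that of Hist1h2ap, with a smaller error, and 9.66% of its 50-base words are shared.

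Both H2A.Z genes fell. H2afv stood at 280 ± 68.9 CPM in BM (SD, n = 6) and 52.2 ± 15.6 CPM in spleen (SD, n = 3), a difference of -2.48 (SE 0.28, edgeR adjusted p = 0.00058), and it shares no 50-base word with another gene. H2afz stood at 3020, 2210 and 2180 CPM in WT BM and 2180, 2360 and 3330 CPM in KO BM, against 1000 CPM in WT spleen and 963 and 1250 CPM in KO spleen. It fell 2.41-fold (log2 difference -1.27, SE 0.21, edgeR adjusted p = 0.00426), although with KO samples alone it did not pass (difference -1.23, edgeR adjusted p = 0.0513). It supplied 28.7 to 31.8% of the replacement CPM in BM and 15.7 to 24.8% in spleen.

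The H3.3 genes showed no detected difference. H3f3a stood at 2860, 1940 and 2210 CPM in WT BM, 1990, 2590 and 3450 CPM in KO BM, 2640 CPM in WT spleen and 2360 and 1670 CPM in KO spleen, and the difference was -0.18 (SE 0.24, edgeR adjusted p = 0.658). H3f3b stood at 1570 to 2280 CPM in BM and 1560 to 2170 CPM in spleen (difference -0.08, SE 0.19, edgeR adjusted p = 0.802). The tissues overlapped for both genes. Of the macroH2A genes, H2afy was at 426 to 525 CPM in BM and 293 to 387 CPM in spleen without passing the test (difference -0.43, SE 0.16, edgeR adjusted p = 0.0959), and H2afy2 had at most 82 counts in BM and none in spleen (edgeR adjusted p = 0.0524). H2afj, an H2A variant gene on chromosome 6, was at 74.7 to 151 CPM in BM and 102 to 122 CPM in spleen (difference 0.18, SE 0.23, edgeR adjusted p = 0.634).

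**Figure D4:**
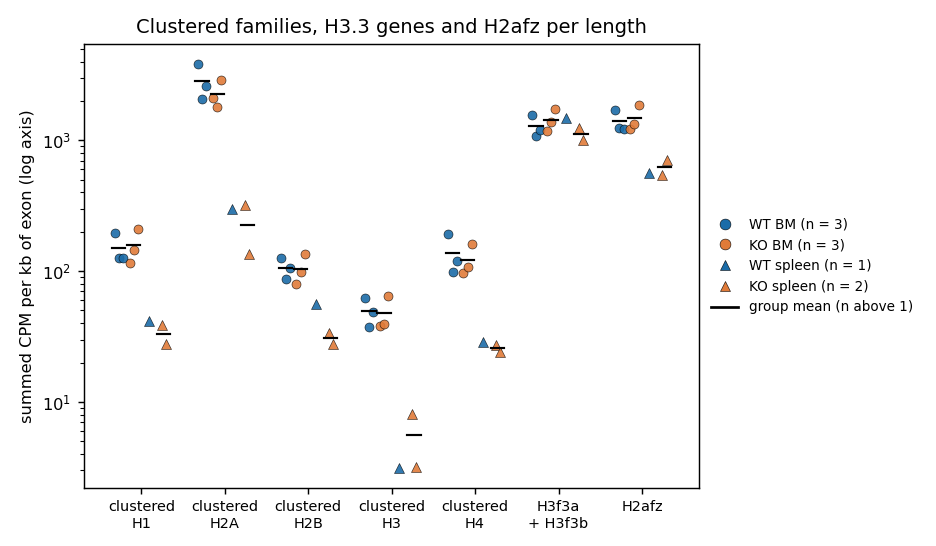
Summed CPM per kb of exon (log axis) of each clustered family, of H3f3a and H3f3b together and of H2afz in each of the 9 samples, with bars at the mean of each group of more than 1 sample. Clustered H3 spans 37.6 to 65.1 in BM and 3.15 to 8.04 in spleen, while the H3.3 pair spans 1000 to 1750 over all 9 samples.

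Per length, the order of the levels in BM was Hist1h2ap (2140 ± 646 CPM per kb, SD, n = 6), H2afz (1430 ± 282), H3f3a (715 ± 166), H3f3b (643 ± 92.3), H2afx (355 ± 28.3), H2afv (172 ± 42.2), Hist1h2ao (118 ± 51), Hist1h1b (114 ± 31.2) and Hist1h2ae (96.6 ± 25.4). The sample ranges of Hist1h2ap and H2afz overlapped, as did those of H3f3a and H3f3b, and those of the last 3. H2afv (137 to 248 CPM per kb) overlapped with Hist1h2ao (63.1 to 207) and Hist1h1b (87.5 to 159). In spleen, H3f3a (635 ± 142, SD, n = 3), H3f3b (606 ± 109) and H2afz (603 ± 87.9) led with overlapping ranges, and Hist1h2ap was at 107 ± 56.8. The H3.3 genes stood 28.5 ± 3.95 times (SD, n = 6) above all clustered H3 genes per kb in BM and 313 ± 158 times (SD, n = 3) in spleen. The spleen ratio rests on few counts: all clustered H3 genes together had 26 in WT spleen and 114 and 51 in KO spleen. Clustered H2A stood at 2540 ± 739 per kb in BM and clustered H2B at 105 ± 21, although their proteins pair in the nucleosome, and without Hist1h2ap the H2A to H2B ratio per kb was 3.13 to 4.42 in BM and 3.19 to 4.77 in spleen.

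Genes that make, process and place histones were taken from lists of known functions. Of 11 genes of replication-coupled histone supply and deposition, 7 fell in spleen and none rose, with a median of -1.39 (63.6% fell, against 9.7% of all genes, whose median was -0.21). Asf1b, a chaperone of H3 and H4, stood at 291 ± 33 CPM in BM (SD, n = 6) and 20.4 ± 13.5 CPM in spleen (SD, n = 3), a difference of -3.97 (SE 0.41, edgeR adjusted p = 0.000355), and its paralogue Asf1a was at 27.1 ± 7.15 and 25 ± 17.4 CPM (edgeR adjusted p = 0.953). Both larger CAF-1 subunits fell, Chaf1b by 2.47 (SE 0.36, edgeR adjusted p = 0.0021) and Chaf1a by 3.41 (SE 0.94, edgeR adjusted p = 0.0368) on the log2 scale. Chaf1a did not pass with the replicate block (edgeR adjusted p = 0.109), with KO samples alone (0.156), without any 1 of the BM libraries (0.0569 to 0.0792) or without the WT spleen library.

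Of 13 genes of histone mRNA processing, 3 fell and none rose, with a median of -0.45 (23.1% fell, against 9.7% of all genes, whose median was -0.21). Slbp, which encodes the stem-loop binding protein, stood at 324 ± 41.5 CPM in BM (SD, n = 6) and 173 ± 18.5 CPM in spleen (SD, n = 3), a difference of -0.91 (SE 0.18, edgeR adjusted p = 0.00887). Sympk, a scaffold of the cleavage complex, and Zfp473, a zinc finger protein of the U7 pathway, fell too (edgeR adjusted p = 0.0188 and 0.0217), both from low levels (19 and 2.62 CPM in BM). With the replicate block none of these 3 passed (edgeR adjusted p = 0.0605 for Slbp, 0.0827 for Sympk and 0.104 for Zfp473). With KO samples alone Slbp and Sympk did not pass (0.0502 and 0.0961), and without KO BM 1 Sympk and Zfp473 did not (0.0595 and 0.0534). Npat, the coactivator of histone genes, was at 23.9 ± 5.1 and 17.6 ± 6.99 CPM (edgeR adjusted p = 0.479).

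Of 11 genes that place or remove replacement variants, 1 fell and none rose, with a median of -0.19, which is close to what all genes gave (9.7% fell, median -0.21). It was Anp32e, a chaperone that removes H2A.Z, which stood at 643 ± 86.9 CPM in BM (SD, n = 6) and 259 ± 24.9 CPM in spleen (SD, n = 3), a difference of -1.32 (SE 0.18, edgeR adjusted p = 0.00147). Daxx and Atrx, which place H3.3, stood at 72.8 ± 13.2 and 150 ± 22.1 CPM in BM and 93.5 ± 18.5 and 191 ± 51.6 CPM in spleen without passing the test (edgeR adjusted p = 0.316 and 0.275). Other genes of RNA without a poly(A) tail, such as Rn7s1 and Rn7s2 of the signal recognition particle, summed to 18.2 to 247 CPM in BM. In spleen they summed to 31.6 to 112 CPM, and the ranges overlapped. The 247 CPM was that of WT BM 1 alone, and the other BM samples lay at 18.2 to 61.7 CPM. Rmrp, Rny1 and Rny3 had no count in any sample, Terc, Rnu11 and Rnu12 had at most 3, and Rn7sk had 1 to 58. Of these 10 genes, 4 could be tested and none passed at an adjusted p of 0.05 in edgeR. How fully RNA without a poly(A) tail was recovered in each library was not tested.

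Genes of the cell cycle fell in spleen as well. Of 10 S phase genes 8 fell and none rose (median -2.54, against 9.7% of all genes lower), with summed levels of 2350 to 3010 CPM in BM and 378 to 655 CPM in spleen. All 8 G2/M genes fell (median -5.79), with sums of 3100 to 3750 and 100 to 155 CPM. With the replicate block, 7 of the S phase and 6 of the G2/M genes fell. Their part in the histone differences was not tested.

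Markers of other cells also differed between the tissues, although the sort excluded cells with T, B, NK, neutrophil and erythroid surface markers. All 7 T cell markers rose in spleen, where they summed to 865 to 3880 CPM against 1.19 to 8.44 CPM in BM, and 4 of 5 NK cell markers rose (743 to 1790 against 46.6 to 108 CPM). Of 5 erythroid markers 3 rose and 1 fell, with sums of 5100 to 30500 CPM against 82.8 to 535 CPM. Of 6 neutrophil markers 5 fell, with sums of 0.333 to 4.92 CPM in spleen and 931 to 2690 CPM in BM, and 3 of the 6 had no count in spleen. B cell markers (1 of 3 tested rose, and none with the replicate block in edgeR, 34.6 to 46.5 against 37.6 to 58.4 CPM) and macrophage and monocyte markers (1 of 5 rose, 1440 to 2230 against 1430 to 2360 CPM) had sums that overlapped. Their part in the histone differences was not tested.

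The second comparison asked whether loss of DNGR-1 goes with a difference in histone transcripts among BM pre-cDCs. None of the 70 histone genes tested passed an adjusted p of 0.05 in edgeR, where 0.0307% of all 13016 genes did, and 2 had an unadjusted p under 0.05. DESeq2 called 1 histone gene and limma-voom called none, nor did edgeR with the replicate block. The median log2 difference between KO and WT was -0.02 for the clustered genes, 0.1 for the replacement variants and 0 for all genes. The CPM ranges of the genotypes did not overlap for 2 of 57 clustered genes (Hist1h2an and Hist1h2bn) and for none of 8 replacement variants, against 9.55% of all genes.

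Values of the leading genes overlapped between the genotypes. Hist1h2ap averaged 1150 ± 385 CPM in WT BM (SD, n = 3) and 914 ± 223 CPM in KO BM (SD, n = 3), a difference of -0.34 (SE 0.29, edgeR adjusted p = 0.861). H2afx averaged 504 ± 18.7 and 481 ± 55.5 CPM (SD, n = 3 each), and H2afz 2470 ± 479 and 2620 ± 617 CPM (SD, n = 3 each). Hist1h2ao stood at 99.4, 53.9 and 64.4 CPM in WT BM and 30.3, 36.4 and 56.1 CPM in KO BM, with a difference of -0.83 (SE 0.32, edgeR unadjusted p = 0.0281, adjusted p = 0.861).

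The gene that DESeq2 called was Hist1h2aj, annotated as a pseudogene, which is named here after its values were seen. It had 63, 48 and 87 counts in WT BM and 4, 0 and 0 counts in KO BM, and at most 2 counts in any spleen sample. The log2 difference was -5.71 (SE 1.1, edgeR unadjusted p = 0.000446, adjusted p = 0.746), and the adjusted p was 0.000178 in DESeq2, 0.0362 in edgeR without the filter on low counts, and 0.0691 to 1 when single BM libraries were left out. Of its 50-base words, 93.1% are shared with other genes, so its counts depend on how reads of near copies were divided.

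The ratio of replacement to clustered CPM was 3.98, 5.11 and 4.49 in WT BM and 5.28, 6.48 and 5.49 in KO BM, where the genotypes did not overlap. Its means were 4.53 ± 0.566 and 5.75 ± 0.638 (SD, n = 3 each), a ratio of 1.27. Per kb it was 0.902 to 1.21 in WT BM and 1.22 to 1.54 in KO BM. The ratio was not tested between genotypes, and 9.55% of all genes likewise had CPM ranges that did not overlap between them in BM. Neither sum separated the genotypes by itself: the clustered sum was 1810 ± 537 and 1510 ± 353 CPM and the replacement sum 7980 ± 1390 and 8640 ± 1720 CPM (SD, n = 3 each, WT and KO). In spleen the ratio was 18 in the WT sample and 16.1 and 24.8 in the KO samples, so that the WT value lay between them.

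**Figure D5:**
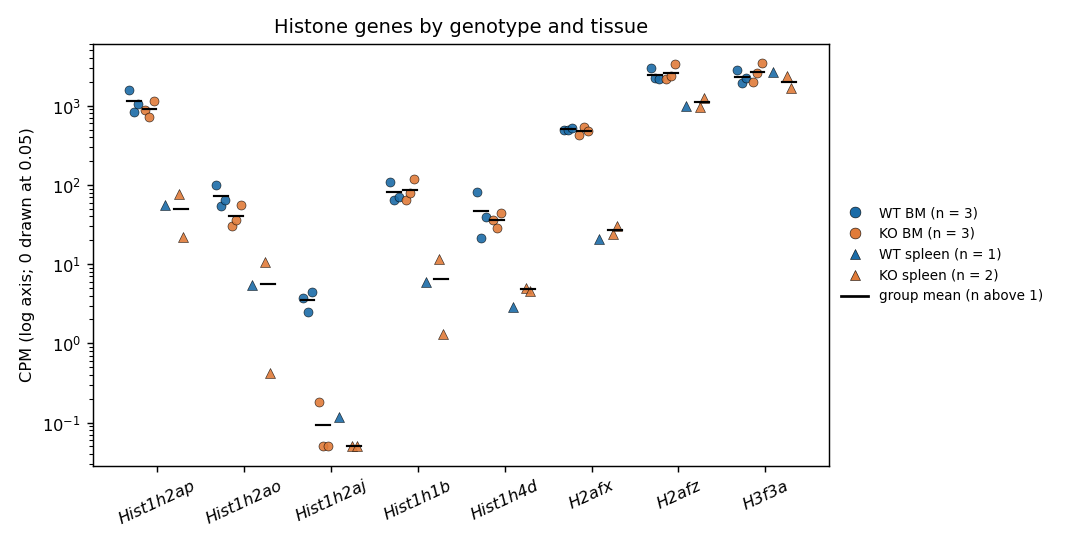
CPM (log axis, 0 drawn at 0.05) of 8 histone genes in each of the 9 samples, with bars at the mean of each group of more than 1 sample. The genotypes overlap in BM for every gene shown except the pseudogene Hist1h2aj, which lies at 2.49 to 4.45 CPM in WT BM and at 0 to 0.181 CPM in KO BM.

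In spleen, with 1 WT sample, the genotypes were not tested, and the values are described. Of 60 clustered genes, 4 lay more than 1 log2 unit above the WT sample in both KO samples (Hist1h2be, Hist1h2bj, Hist1h3e and Hist1h4h), against 13.9% of all genes, and 9 lay more than 1 below in both, against 8.08% of all genes. None of the 8 replacement variants did either. The 4 higher genes had 1, 0, 1 and 0 counts in WT spleen, in the order named, under the floor of 3 counts. Hist1h2bj had only 3 counts in KO spleen 1 and 27 in KO spleen 2. The differences of these 4 thus rest on low values in the WT spleen library, which stood apart in the check of counts above. The 9 lower genes were Hist1h2ac, Hist1h2ai, Hist1h2ak, Hist1h2bg, Hist1h2bl, Hist1h3h, Hist1h4c, Hist1h4m and Hist2h3b. Hist1h2bl and Hist1h3h had 2 counts in WT spleen and 0 in both KO samples, at or under the floor of 3 counts, so that no difference can be given for them. Among genes over that floor in at least 1 spleen sample, a restriction chosen after seeing the data, 7 of 45 clustered genes lay below (15.6% against 9.29% of all genes) and 4 above (8.89% against 16.2%). The KO samples also differed from each other: Hist1h1b was at 11.7 CPM in KO spleen 1 and 1.31 CPM in KO spleen 2, and Hist1h2ap at 76.2 and 22.1 CPM.

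The 7 pseudogenes and antisense genes summed to 6.2 to 20.1 CPM in BM and 8.57 to 28.3 CPM in spleen. Of the 5 tested, Hist3h2bb-ps fell, with 6 to 25 counts in each BM sample and none in spleen, at least 5.39-fold lower (edgeR adjusted p = 0.0212). It did not pass with the replicate block (edgeR adjusted p = 0.108), with KO samples alone (0.0689) or without KO BM 2 (0.0525). H3f3c, a processed copy of H3.3 that shares 73.8% of its 50-base words, was at 4.88 ± 1.54 CPM in BM (SD, n = 6) and 13.2 ± 8.9 CPM in spleen (SD, n = 3) without passing the test (edgeR adjusted p = 0.073). The 8 genes without any count were H2af-ps, H2afb1, H2afb2, H2afb3, H2afy3, Hist1h1t, Hist1h2aa and Hist1h2ba.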

How the data were processed

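RNA-seq was done on ribosome-depleted total RNA of sorted pre-cDCs in 9 samples. The submitters' processing notes name Trimmomatic 0.36, STAR 2.5.2, RSEM 1.3.0, DESeq2 1.18.1, R 3.4.3 and the build GRCm38. The deposited expected counts per gene were estimated by the authors with RSEM and were rounded to whole numbers here. The annotation and the strand setting were not given in the sources used here, and a second deposited table of variance-stabilised values was not used. RSEM divides reads among near copies, which affects histone genes, and 25 of the 70 clustered and replacement genes have an antisense gene over their exons.

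Gene symbols came from GENCODE M21, which paired 51633 of 51912 identifiers. Hist1h2bm and Hist1h2bh were not analysed here. CPM were scaled by TMM. For spleen against BM, genotype was a covariate in a fit of the 9 samples (edgeR 4.0.16 quasi-likelihood test, R 4.3.3). Genotypes were compared in the 6 BM samples alone. Genes were kept by edgeR's filterByExpr, given the 4 groups for the first fit, and p-values were adjusted over all genes by Benjamini-Hochberg. With 2 KO and 1 WT spleen samples, genotypes in spleen were described by log2 differences over 1 in both KO samples. Lower bounds used a floor of 3 counts per library. Sample totals of 17103806 to 23722298 set the floors in CPM, and the floors cover counting error only. The SDs are across samples, and the SEs come from the edgeR fits, so both include variation between samples. Each sample pooled a pair of mice, and the study's mouse total makes 3 pools, each a source of WT and KO cells, so the samples of 1 group come from separate pools. Samples of one number in the labels were taken as the same pool, although no source says so outright. In BM, deviations from the group means of same-numbered samples had r = 0.09, 0.07 and -0.06 over genes. The fits were tested on simulated counts.

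Named genes were all replacement variants, the 5 clustered genes with the lowest adjusted p in each direction, the 10 with the highest CPM per kb, those of at least 10 CPM that did not pass and any that went against the majority. Genes outside that rule (Hist1h3g, Hist1h2bj, Hist2h2aa2, Hist1h2aj, H3f3c, Hist3h2bb-ps and the genes of the function lists given with values) were chosen after their values were seen. DESeq2 1.42.0 and limma 3.58.1, other scalings and filters, a replicate block and the omission of single libraries were tried as alternatives. The members and lists were chosen with earlier results of these data known.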

Additional observations from a re-analysis of the deposited data

Results flagged for a closer look

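One value stood far from its group. Hist1h2bc, an H2B gene of the Hist1 cluster, was at 45.4 CPM in WT BM 1, while the other 5 BM samples lay between 18.3 and 27.1 CPM. The gap was 0.677 of the range of the 6 samples. In all, 25 such groups of 6 were examined, and chance alone gives about 1 in 20.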

How the results depend on the processing

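In the comparison of spleen with BM, 20 clustered genes fell and 1 rose. The number that fell was 36 with DESeq2, 36 with limma-voom, 10 of 18 testable genes with at least 10 counts in every sample, 6 with a replicate block and 7 with KO samples only. It was 11 to 27 when single libraries were left out (11 to 13 without any 1 BM library). Of all genes, 9.7% fell in the main fit. The shares were 15.5% with DESeq2, 14.3% with limma-voom, 9.15% with the strict filter, 4.05% with the block and 6.23% with KO samples only. Without single libraries they were 6.34 to 12.9%. Among the genes given with values as having passed, the block changed no call beyond those given beside the results. All 20 were among the 36 of DESeq2 and the 36 of limma-voom, and the 6 under the block were among the 20. The number that rose was 2 with DESeq2, 2 with limma-voom and 2 with at least 10 counts in every sample, but 0 with the replicate block, 0 with KO samples only and 0 to 1 without single libraries (0 without the WT spleen library). H2afx, H2afv, Hist1h2ap, Hist1h2ae, Hist1h4d and Hist1h4i passed in all 19 alternatives tried for them. The causes were not tested, except that fewer samples and fewer genes enter the KO fit and the strict filter. A low-count filter by the model design, chosen after seeing the data, gave 22 of 57 clustered genes that fell (against 11.7% of all genes).

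In the BM comparison, DESeq2 called 1 histone gene and edgeR without the low-count filter called 1, both Hist1h2aj, and the replicate block called 0. The median difference of the replacement variants turned from 0.1 to -0.07 without KO BM 3 and was 0.28 without WT BM 1. The replacement to clustered ratio in BM, 5.14, was 13.4 without Hist1h2ap and 1.2 per kb of exon, and in spleen, 19.6, it was 23.3 and 6.11; both of these were chosen after seeing the data. With KO spleen 1 alone, 14 clustered genes lay above WT in spleen, and with KO spleen 2 alone 9 lay above and 18 below. Leaving out 1 of these 2 libraries thus gave 9 to 14 above and 12 to 18 below. The shares of all genes, 13.9% above and 8.08% below, were taken for both KO spleen samples together. No such share was taken for 1 KO library, so the counts with KO spleen 1 or KO spleen 2 alone cannot be judged against all genes. With 3 spleen samples and many clustered genes at 3 counts or fewer there, differences of low genes rest on few counts.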
